A study of Mus musculus with 10 samples.

Results

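The genes described here are 10 that build and cap the short sugar chains of mucin-type O-glycans: C1galt1, C1galt1c1, Gcnt1, B3gnt3, St3gal1, St3gal2, St3gal4, St6galnac4, St6galnac6 and Cmas. They were chosen by name, with earlier results of these data known, and each was found on 1 of the 27024 named rows of the expression table. The table came from RNA-seq of bEnd.3 cells, an immortalised line of mouse brain endothelial cells with the genotype given as wild type. The cells received either 5 nM StcE, a bacterial protease that cuts proteins carrying mucin domains, or saline, for 16 h. There were 5 saline samples (replicates 1, 2, 3, 4 and 5) and 5 StcE samples (replicates 1, 2, 3, 5 and 6), all of 1 cell line, with no group given inactive enzyme. The sources used here do not say that replicates were separate cultures, so the p-values measure the spread between these samples, which may be technical.

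A mucin-type O-glycan starts when a GalNAc transferase of the Golgi joins N-acetylgalactosamine to a serine or threonine. C1GALT1 adds galactose to it, which makes core 1, and it needs the chaperone COSMC, the product of C1galt1c1, to fold. GCNT1 can branch core 1 into core 2, B3GNT3 can extend core 1 with N-acetylglucosamine, and sialyltransferases of the ST3GAL and ST6GALNAC families cap the chains with sialic acid that CMAS has activated. In endothelial cells these chains form part of the glycocalyx, the coat on the side of the cell that faces the blood, and core 1 glycans are known to be needed for the integrity of brain and lymphatic vessels.

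All 10 genes are protein coding in GENCODE on the GRCm38 build. C1galt1 lies at chr6:7844842-7875687 and Cmas at chr6:142756686-142775714, both on the plus strand, and C1galt1c1 at chrX:38630785-38635087 on the minus strand. Gcnt1 lies at chr19:17326141-17372844 and St3gal1 at chr15:67102875-67176830, both on the minus strand. B3gnt3 at chr8:71690756-71701789 (minus) and St3gal2 at chr8:110919922-110972480 (plus) share a chromosome. St6galnac4 at chr2:32587095-32599698 and St6galnac6 at chr2:32599709-32620806 are neighbours on the plus strand with 10 bases between them. St3gal4 at chr9:35046576-35119268 is on the minus strand, and 14.1% of its exon length overlaps 4930581F22Rik on the opposite strand. The strand setting of the authors' counting is not given in the sources used here, so reads of that stretch cannot be assigned to one gene. The exons of the other 9 genes overlap no other gene. The longest transcript of each gene was searched for near-identical copies in other genes (at least 95% identity over at least 150 bases). They were found for 3.05% of that of St3gal1 and for none of the rest. Exons outside these transcripts were not searched.

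Promoter sequences from RefSeq (GRCm38.p6, 250 bases before to 50 after a start) matched 7 of the 10 genes, with 9 windows because Gcnt1 has 3. Those of St6galnac4, the only gene of the 10 whose level passed the test, and of B3gnt3 and Gcnt1, which act on the same core 1 chain and were expressed at very different levels, are shown here from 5′ to 3′ with each CpG in capitals. The windows are chr2:32586828-32587127 on the plus strand for St6galnac4, chr8:71701751-71702050 on the minus strand for B3gnt3 and chr19:17372795-17373094 on the minus strand for the outermost of the Gcnt1 starts.
St6galnac4: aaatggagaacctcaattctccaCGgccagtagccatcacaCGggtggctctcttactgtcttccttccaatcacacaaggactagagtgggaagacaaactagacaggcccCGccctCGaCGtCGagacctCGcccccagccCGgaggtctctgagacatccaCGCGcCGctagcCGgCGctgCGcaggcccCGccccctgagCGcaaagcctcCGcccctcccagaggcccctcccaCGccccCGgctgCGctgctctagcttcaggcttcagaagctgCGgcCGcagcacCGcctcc
B3gnt3: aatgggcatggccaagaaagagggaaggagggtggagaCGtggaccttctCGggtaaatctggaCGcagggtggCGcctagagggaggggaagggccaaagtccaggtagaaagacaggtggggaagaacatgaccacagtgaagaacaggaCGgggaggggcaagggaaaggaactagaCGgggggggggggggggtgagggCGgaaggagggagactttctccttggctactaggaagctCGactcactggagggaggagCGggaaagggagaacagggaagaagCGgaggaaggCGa
Gcnt1: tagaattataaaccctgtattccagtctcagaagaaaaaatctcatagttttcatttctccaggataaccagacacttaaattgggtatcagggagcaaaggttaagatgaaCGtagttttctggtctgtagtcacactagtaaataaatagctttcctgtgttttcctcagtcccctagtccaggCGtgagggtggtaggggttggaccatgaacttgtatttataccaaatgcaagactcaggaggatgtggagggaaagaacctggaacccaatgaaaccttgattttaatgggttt

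The St6galnac4 window held 23 CpG, the B3gnt3 window 11 and this Gcnt1 window 2. Over all 32851 promoter windows in the RefSeq set the median was 7 CpG, with quartiles of 3 and 20. The other Gcnt1 windows held 3 and 16 CpG. C1galt1 had the most of the genes described, with 52 CpG and 82.7% G and C. St3gal4 had 31, Cmas 17 and St6galnac6 2. The C1galt1 (chr6:7844974-7845273) and St3gal4 (chr9:35116815-35117114) windows lay inside the GENCODE spans of their genes. The St6galnac6 window (chr2:32599459-32599758) overlapped the 3′ end of St6galnac4. The letters TATAAA, searched on both strands, were present only in the Gcnt1 window shown among the 9 and in 13.6% of all windows. The letters GGGCGG, searched on both strands, occurred 6 times in the C1galt1 window, 3 times in those of St3gal4 and St6galnac4 and once in those of B3gnt3 and Cmas, and 35.7% of all windows held them. These are matches of letters and no measurement of binding.

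FPKM values (fragments scaled by gene length and by sequencing depth) gave back whole numbers of fragments for 96.4% of values above 0, within a tolerance of 0.02, and the totals ran from 21864510 to 33147226 fragments per sample. Between 346 (St6galnac6) and 6178 (St3gal2) fragments per sample stood behind the genes described other than Gcnt1. The label of the cells was checked against markers. All 10 endothelial markers had a mean FPKM of at least 1, led by Cdh5 (VE-cadherin) at 486. The lowest was Vwf at 1.28, near that minimum. Their summed level was 1742 to 1868 FPKM in saline and 1700 to 1769 in StcE samples. Of these 10 markers, 4 were lower after StcE (Pecam1, Tek, Erg and Esam), 1 was higher (Egfl7) and 5 did not pass the test described below. Among all tested genes 6.41% were lower and 5.52% higher. The part of these marker changes in the results below was not tested. The neuronal, astrocyte, oligodendrocyte and pericyte markers with a row each had a mean under 0.2 FPKM, among them Snap25, Aqp4, Mog and Pdgfrb, and so was the leukocyte marker Ptprc. Other markers were present, with Cd68 at 20.1 FPKM, Krt19 at 1.58 and Pdgfra at 1.24, and none passed the test. In RNA from whole cultures, fewer cells of a type and less RNA per cell cannot be told apart.

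After StcE, 1 of the 10 genes passed the test, St6galnac4, which fell by 7.73% in mean FPKM. None rose. Of the genes described, 9 had a mean FPKM of at least 1 and were tested with limma on log2(FPKM + 1) together with all 11062 such genes, at a Benjamini-Hochberg adjusted p under 0.05, while Gcnt1 was below the minimum. Among all tested genes 11.9% passed (6.41% lower and 5.52% higher after StcE), so 1 of 9, or 11.1%, is near the background share. At an unadjusted p under 0.05 there were 2 of the 9, St6galnac4 and St3gal1, both lower after StcE, where 27.8% of all tested genes passed the same limit. Without saline replicate 5 there were 5, among them C1galt1 and C1galt1c1 with higher StcE levels, and without StcE replicate 5 there were 3, among them C1galt1, while the adjusted p of both genes missed the threshold in all 22 alternatives. The log2 fold changes were below 0 for 5 genes and above 0 for 4, with a median of −0.037 against −6.6e-04 over all tested genes. The 95% intervals of the 9 genes lay between −0.27 and 0.22, so larger changes than these on the log2(FPKM + 1) scale lay outside all 9 intervals. That scale understates the fold change of genes with a low FPKM.

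**Figure D1:**
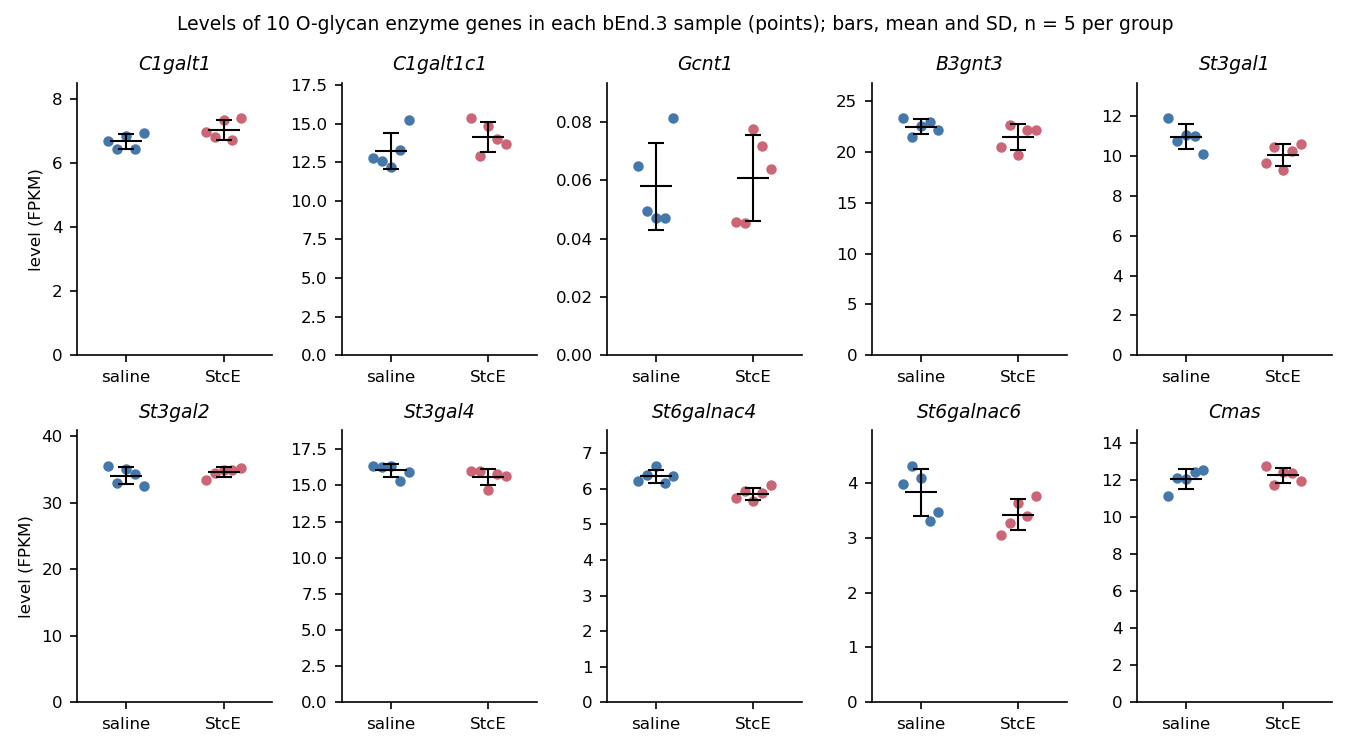
Level in FPKM (vertical axis, from 0, a scale for each gene) of the 10 genes in each saline and StcE sample, with the mean and SD of 5 samples as bars. The groups overlap for every gene except St6galnac4, whose StcE samples lie between 5.65 and 6.10 and saline samples between 6.15 and 6.65.

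The genes of core 1 were at moderate levels and did not pass the test. C1galt1, the core 1 synthase, was at 6.71, 6.45, 6.86, 6.46 and 6.96 FPKM in the saline samples and at 6.97, 6.82, 7.36, 6.72 and 7.40 in the StcE samples. All 5 StcE samples were above the saline median and 3 were above every saline sample, but the groups overlapped. The mean was 6.69 ± 0.231 in saline and 7.05 ± 0.310 FPKM in StcE (SD, n = 5 each), a log2 fold change of 0.067 (SE 0.0339, 95% interval −0.0069 to 0.14, limma adjusted p = 0.224, exact two-sided permutation p = 0.0873).

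C1galt1c1, which encodes the chaperone of C1GALT1, was at 12.8, 12.6, 12.2, 13.3 and 15.2 FPKM in saline and at 15.3, 12.9, 14.9, 14.0 and 13.7 in StcE samples. Saline replicate 5 stood within the upper StcE values, and the groups overlapped. Its means were 13.2 ± 1.18 and 14.2 ± 0.971 FPKM, a log2 fold change of 0.094 (SE 0.0583, 95% interval −0.034 to 0.22, limma adjusted p = 0.327, exact permutation p = 0.175). The FPKM of the chaperone over that of the synthase was 1.98 ± 0.155 in saline and 2.01 ± 0.144 in StcE samples, closer than the spread within either group.

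Of the enzymes that act on core 1 next, the extending enzyme was abundant and the branching enzyme was close to absent in both groups. B3gnt3 was at 23.3, 21.5, 22.6, 23.0 and 22.1 FPKM in saline and at 20.5, 22.7, 19.7, 22.2 and 22.2 in StcE samples. The lowest values were StcE replicates 1 and 3, and the other StcE samples lay within the saline range. The means of 22.5 ± 0.706 and 21.4 ± 1.29 FPKM gave a log2 fold change of −0.067 (SE 0.0395, 95% interval −0.15 to 0.019, limma adjusted p = 0.299, exact permutation p = 0.183). The ratio of B3gnt3 to C1galt1 was 3.37 ± 0.150 in saline and 3.05 ± 0.271 in StcE samples, with overlapping ranges.

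Gcnt1, the core 2 branching enzyme, was at 0.0649, 0.0495, 0.0472, 0.0470 and 0.0812 FPKM in saline and at 0.0458, 0.0455, 0.0776, 0.0717 and 0.0640 in StcE samples. These values came from 11, 7, 7, 6 and 11 fragments in saline and 6, 7, 15, 14 and 9 in StcE samples, 93 in all, worked out with a gene length of 5571 bases, at which all 10 values came out whole, in place of the 5760 bases of the GENCODE exons. They are above the 3 fragments that a count of 0 allows, but the depth limits what could be seen. The means were 0.0580 ± 0.0150 and 0.0609 ± 0.0148 FPKM, and an exact two-sided permutation test gave p = 0.794. Without the minimum level, limma gave a log2 fold change of 0.0040 (SE 0.0135, adjusted p = 0.917) on the log2(FPKM + 1) scale. No difference was detectable at this depth. The next gene in the order of levels, St6galnac6, had a saline mean 66.0-fold higher.

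The sialyltransferases that cap galactose by an α2,3 bond were led by St3gal2 in both groups, and none passed the test. St3gal1, which sialylates the galactose of core 1, was at 11.9, 10.8, 11.1, 11.0 and 10.1 FPKM in saline and at 9.65, 10.4, 9.31, 10.2 and 10.6 in StcE samples. The groups overlapped through saline replicate 5. Its means of 11.0 ± 0.632 and 10.0 ± 0.550 FPKM gave a log2 fold change of −0.12 (SE 0.0438, 95% interval −0.21 to −0.021, limma unadjusted p = 0.0212, adjusted p = 0.108, exact permutation p = 0.0397). Over all alternatives the adjusted p was 0.0561 to 0.245, so that it missed the threshold in each.

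St3gal2, which acts on the same core 1 end and on gangliosides, was at 35.6, 32.9, 35.1, 34.4 and 32.6 FPKM in saline and at 33.4, 34.5, 34.9, 35.0 and 35.3 in StcE samples. Every StcE sample lay within the saline range. With means of 34.1 ± 1.32 and 34.6 ± 0.753 FPKM, the log2 fold change was 0.021 (SE 0.0287, 95% interval −0.042 to 0.084, limma adjusted p = 0.688, exact permutation p = 0.468).

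St3gal4, which prefers galactose on N-acetylglucosamine and takes part in making selectin ligands, was at 16.4, 16.3, 16.4, 15.3 and 15.9 FPKM in saline and at 16.0, 16.0, 14.7, 15.8 and 15.6 in StcE samples. The groups overlapped, and StcE replicate 3 was the lowest of the 10. The means were 16.0 ± 0.455 and 15.6 ± 0.551 FPKM, with a log2 fold change of −0.037 (SE 0.0297, 95% interval −0.10 to 0.028, limma adjusted p = 0.457, exact permutation p = 0.254). Summed over St3gal1, St3gal2 and St3gal4, the level was 61.1 ± 2.05 FPKM in saline and 60.3 ± 1.23 in StcE samples, a difference smaller than the spread in either group.

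The sialyltransferases that attach sialic acid by an α2,6 bond were at lower levels. St6galnac4, which adds a further sialic acid to the N-acetylgalactosamine of sialylated core 1, was at 6.23, 6.38, 6.65, 6.15 and 6.35 FPKM in saline and at 5.75, 5.93, 5.65, 5.87 and 6.10 in StcE samples. All 5 StcE samples were below all 5 saline samples, and the gap between the nearest samples was narrow. Among all tested genes 10.7% had groups that did not overlap (5.8% lower and 4.85% higher after StcE), and St6galnac4 was 1 of the 9 tested here, none of which stood apart in the other direction. The mean was 6.35 ± 0.188 FPKM in saline and 5.86 ± 0.170 in StcE (SD, n = 5 each), a log2 fold change of −0.10 (SE 0.0292, 95% interval −0.16 to −0.036, limma adjusted p = 0.0467). The exact permutation p of 0.00794 is the smallest that 252 arrangements of 5 against 5 samples can give. It follows from groups that do not overlap. Both come from the values that gave the limma call, so they add no separate support. The call lay close to the threshold. It held in 5 of 22 alternatives, with an adjusted p from 0.0381 to 0.151, and the log2 fold change stayed between −0.12 and −0.085 in all 22. Leaving out any sample other than StcE replicate 6 ended the call, with an adjusted p of 0.0406 to 0.112 over the 10 samples left out in turn.

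St6galnac6, which acts mainly on gangliosides, was at 3.97, 4.31, 4.09, 3.30 and 3.47 FPKM in saline and at 3.05, 3.26, 3.64, 3.39 and 3.75 in StcE samples. The saline samples spread widely, and replicates 4 and 5 lay among the StcE samples. With means of 3.83 ± 0.426 and 3.42 ± 0.282 FPKM, its log2 fold change of −0.12 (SE 0.0646, 95% interval −0.27 to 0.017) was larger than that of St6galnac4 but less certain (limma adjusted p = 0.237, exact permutation p = 0.119). Together the 5 sialyltransferases were at 71.3 ± 2.28 FPKM in saline and 69.6 ± 1.51 in StcE samples, with overlapping ranges.

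Cmas, which activates sialic acid to CMP-sialic acid, the donor for all these transferases, was at 11.1, 12.1, 12.1, 12.5 and 12.5 FPKM in saline and at 12.8, 11.7, 12.4, 12.4 and 12.0 in StcE samples. Saline replicate 1 was the lowest of the 10 samples and the rest overlapped. The means were 12.1 ± 0.551 and 12.2 ± 0.415 FPKM, with a log2 fold change of 0.021 (SE 0.0345, 95% interval −0.054 to 0.097, limma adjusted p = 0.736, exact permutation p = 0.595). Without saline replicate 1 it was −0.00455.

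By saline means per length, the order of levels was St3gal2, B3gnt3, St3gal4, C1galt1c1, Cmas, St3gal1, C1galt1, St6galnac4, St6galnac6 and Gcnt1. Neighbours whose saline ranges overlapped were C1galt1c1 and Cmas, Cmas and St3gal1, and C1galt1 and St6galnac4. In the StcE samples the same order held by mean, and the only neighbours whose ranges overlapped were St3gal4 and C1galt1c1. Within each sample, however, C1galt1 was above St6galnac4 and C1galt1c1 above Cmas in all 10 samples, and Cmas was above St3gal1 in 9 of 10.

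The rest of the pathway was read from 5 lists with 71 gene names, of which 57 had a row and 26 passed the minimum level. The other 14 names are not analysed here. On the same strand, 90% of the exon length of Galnt2, which was under the minimum, is shared with Gm20388. Of that of B3gnt2, which was tested, 65.5% is shared with Gm12057 and Gm28048. The part of this sharing in their levels was not tested. After StcE, 2 of the 26 tested genes fell and 2 rose, or 15.4% against the background of 11.9%. The median log2 fold change of the 26 was −0.025. All 4 had groups that did not overlap, as had 10.7% of all tested genes. Each had an exact permutation p of 0.00794. Both come from the values that gave the calls, so they add no separate support. Of the 7 tested GalNAc transferases that start the chains, 1 fell and none rose, with 3 at an unadjusted p under 0.05 (27.8% of all tested genes were) and a list median of −0.064. It was Galnt10, which went from 6.56 ± 0.194 to 5.86 ± 0.366 FPKM (log2 fold change −0.14, limma adjusted p = 0.0378), and this call held in 11 of 22 alternatives. It was lost without saline replicate 1, 2, 3 or 4 or StcE replicate 1, 3 or 6, with an adjusted p of 0.0228 to 0.0932 over the 10 samples left out.

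Among the other sialyltransferases 1 of 4 tested fell and none rose, where 6.41% of all tested genes fell and 5.52% rose. The list median was −0.039. St6gal1, which caps the galactose of N-glycans by an α2,6 bond, was at 7.22, 6.80, 6.39, 6.86 and 7.09 FPKM in saline and at 5.22, 5.29, 5.25, 5.77 and 5.31 in StcE samples. No StcE sample reached the lowest saline value, and the mean fell by 21.9%, from 6.87 ± 0.317 to 5.37 ± 0.226 FPKM (log2 fold change −0.31, SE 0.0363, limma adjusted p = 3.4e-04). This was past the threshold in all 22 alternatives. Of its exon length, 4.07% overlaps BC106179 on the opposite strand.

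Of the 10 tested enzymes that branch, extend or modify the ends of chains, 2 rose and none fell. Among all tested genes 5.52% rose and 6.41% fell. No other gene of this list had an unadjusted p under 0.05 with limma, where 27.8% of all tested genes did. The list median was −0.020. Chst1, a sulfotransferase that acts on galactose, went from 28.5 ± 2.12 to 35.2 ± 1.30 FPKM (log2 fold change 0.30, limma adjusted p = 0.00217). B4galt5, a galactosyltransferase known for making lactosylceramide, went from 41.8 ± 2.12 to 47.0 ± 1.50 FPKM (log2 fold change 0.17, limma adjusted p = 0.0118). Chst1 was past the threshold in all 22 alternatives and B4galt5 in 21.

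None of the 3 tested genes of sialic acid supply (Gne, Nans and Slc35a1) and neither of the tested sialidases (Neu1 and Neu3) passed with limma on FPKM or, on recovered fragments, with voom, and 0 of them had an unadjusted p under 0.05 in either, against 27.8% of all genes tested with limma on FPKM and 28.9% with voom. Their adjusted p was 0.287 to 0.994 for the former and 0.430 to 0.854 for the latter. Of the Nans exon length 29.6% overlaps Trim14, and of that of Slc35a1 3.62% overlaps Gm22849, both on the opposite strand. With the strand setting not given, reads of those stretches cannot be assigned to 1 gene.

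**Figure D2:**
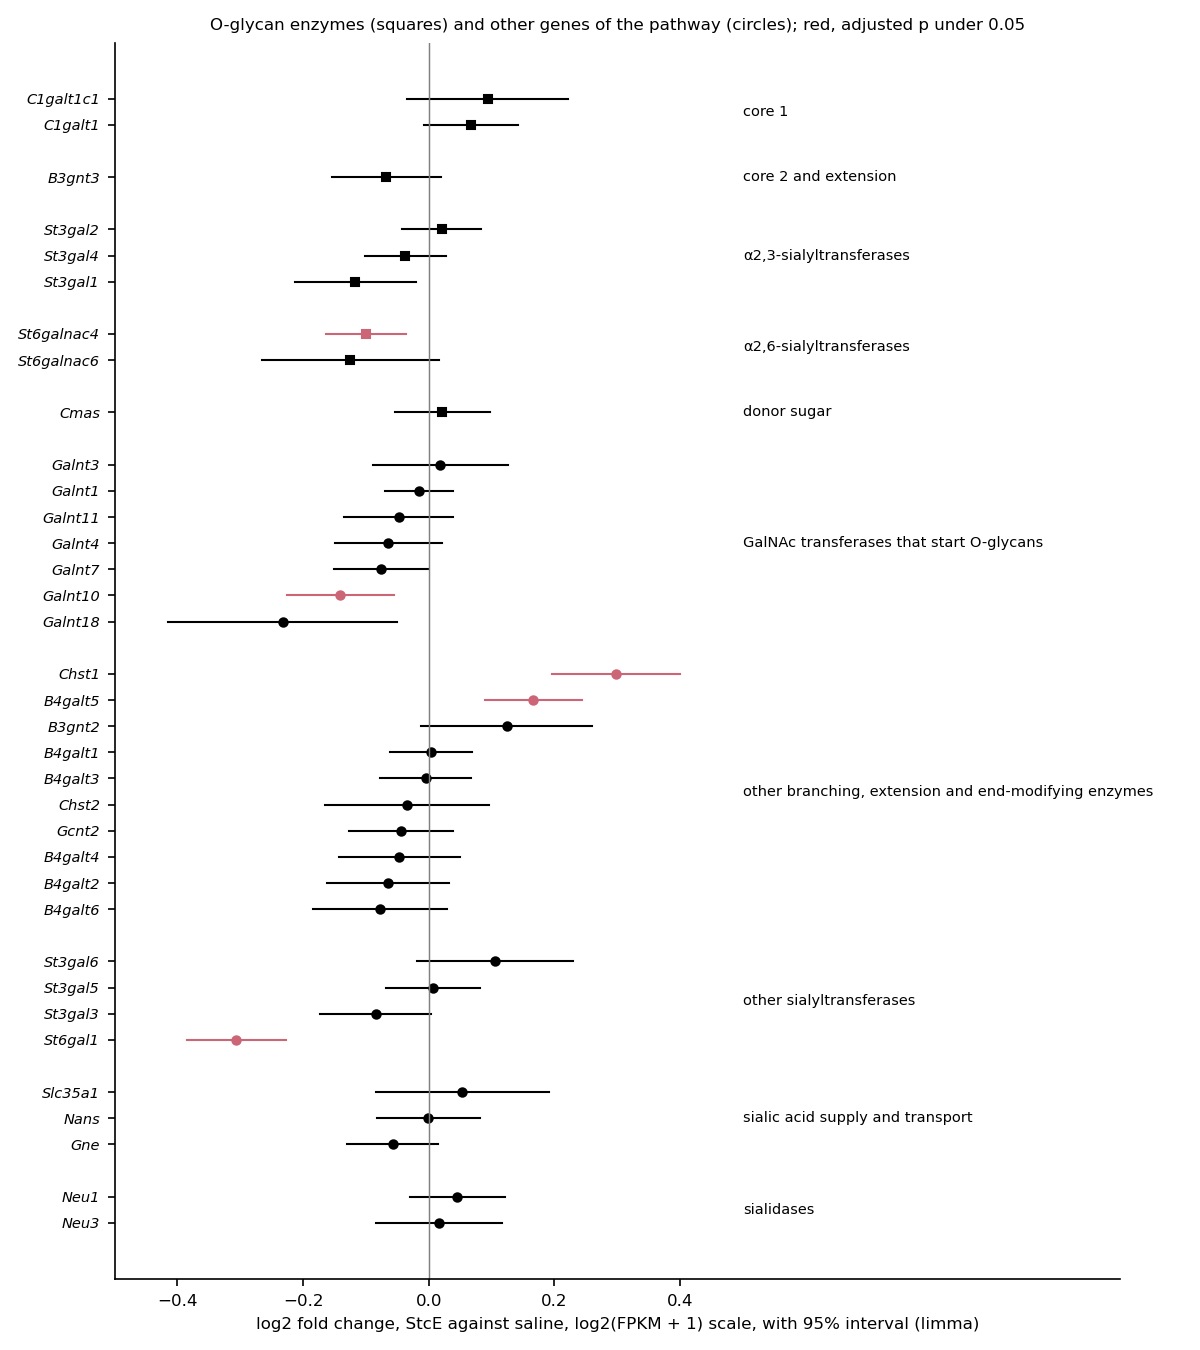
Log2 fold change of StcE against saline on the log2(FPKM + 1) scale (horizontal axis) with 95% limma intervals for the 9 tested genes (squares) and 26 other genes of the pathway (circles), grouped by role. Red marks an adjusted p under 0.05: St6galnac4 at −0.10, Galnt10 at −0.14 and St6gal1 at −0.31 to the left of 0, and B4galt5 at 0.17 and Chst1 at 0.30 to the right.

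**Figure D3:**
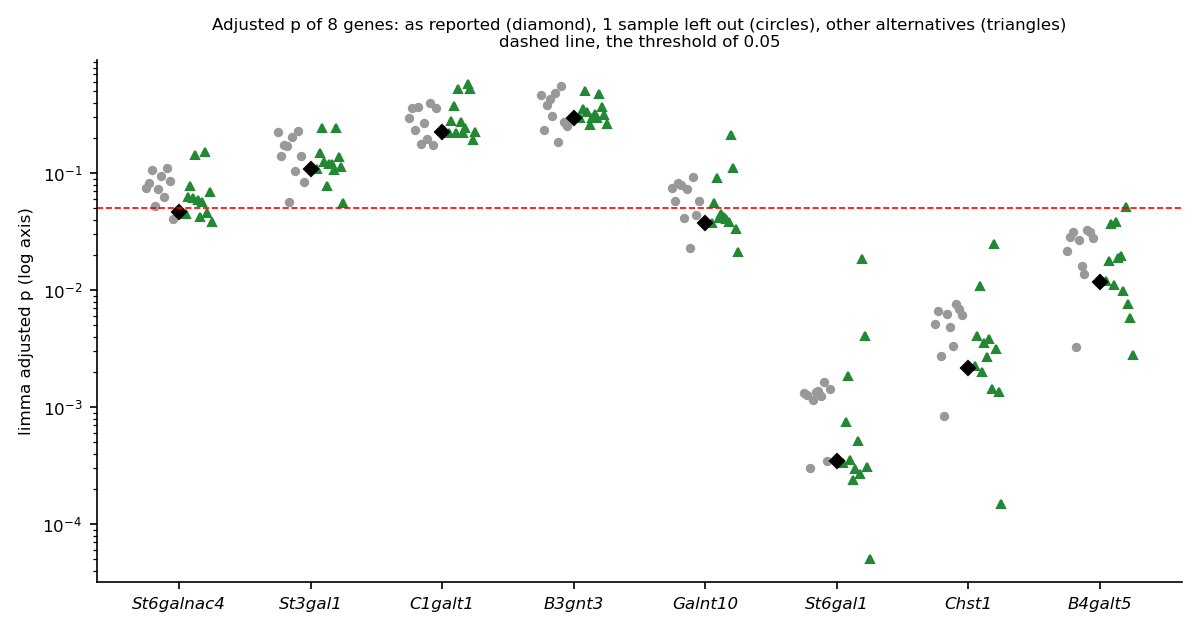
Limma adjusted p (vertical log axis) of 8 genes as reported (diamonds), with 1 sample left out (circles) and under the other alternatives (triangles), with a dashed line at 0.05. St6galnac4 straddles the line, from 0.0381 to 0.151, as does Galnt10, from 0.0214 to 0.211, while St6gal1 and Chst1 stay below it.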

How the data were processed

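Poly-A RNA of 10 bEnd.3 samples was sequenced. The authors deposited FPKM values, 1 column per sample (0 columns of other samples). Per the submitters' processing notes, HISAT2 2.0.5, featureCounts 1.5.0-p3 and DESeq2 1.32.0 were used with mm10. The annotation release and strand setting are not given in the sources used here. The FPKM scale followed DESeq2-type size factors to within 0.0447%, so it is not a plain per-million scale.

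Groups came from the sample titles. log2(FPKM + 1) was fitted with limma 3.58.1 (trend) in R 4.3.3 over all genes whose FPKM averaged 1 or more, with Benjamini-Hochberg adjustment and a threshold of 0.05. Single genes also had an exact two-sided permutation test over 252 arrangements. The fit was tested on simulated data. Near-identical copies were searched with BLAST 2.17.0.

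The genes and lists were chosen with earlier results of these data known. Named genes were all 10 described, every pathway gene past the threshold where a list had 6 or fewer, and per marker list the highest gene and defining markers at or near 0. A further list of pathway genes is not reported here. The remaining 22874 rows were empty. Alternatives changed the pseudocount (0.1), level minimum (0.1 or none), scaling, variance model, replicate block and samples. Voom on recovered fragments, total-fragment scaling and an equal FPKM sum without Gm23935 were added after seeing the data. Replicates differed by more than counting noise (chi-square per degree of freedom 3.21 to 9.17). Fragment numbers cover counting error only.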

Additional observations from a re-analysis of the deposited data

Results flagged for a closer look

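St6gal1, an α2,6-sialyltransferase of N-glycans, was at 5.77 FPKM in StcE replicate 5, apart from the other StcE samples at 5.22 to 5.31, by a gap of 0.847 of the group's range where 0.71 is the critical value for 5 samples. It still lay below the lowest saline sample, 6.39. This was 1 of 28 groups examined, where chance gives about 1 in 20, or 1.4.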

How the results depend on the processing

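Of 198 refits (9 genes, 22 alternatives each), 180 kept the direction and the side of the threshold, 17 lost the call, all of St6galnac4, and 1 reversed, Cmas at −0.00455 without saline replicate 1 (up to 0.036 with another sample left out). The count of the genes described past the threshold went from 1 to 0 with a minimum mean FPKM of 0.1, with no minimum, with upper quartile scaling, with an equal FPKM sum with or without Gm23935, with a robust trend, with total-fragment scaling and with the replicate block, and was 0 to 1 with a sample left out. The cause was not tested. At an unadjusted p under 0.05 limma gave 2 of them in each of these 8 settings, where 14.8 to 27.8% of all tested genes passed, and 1 to 5 with a sample left out, where 23.2 to 27.8% did. Over all tested genes the count of 1320 became 801 without a minimum and 776 with an equal FPKM sum, where 505 were lower and 271 higher against 709 and 611. With Gm23935 kept out of the sum it was 1284, with 702 lower and 582 higher. It was 793 to 1255 with a sample left out, 793 without StcE replicate 3 and 838 without saline replicate 1. The pathway lists together gave 3 to 5 with a sample left out, against 4.

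Replicate numbers shared by the groups (4 numbers, 8 samples) did not mark pairs, since deviations of same-numbered samples correlated at −0.0966 to 0.0538, for none of the 4 numbers the highest value found. With the replicate block 349 genes, 0 of the genes described and 2 of the pathway genes passed, and St6galnac4 had a log2 fold change of −0.12 (limma adjusted p = 0.151). Galnt10 (adjusted p = 0.211) and B4galt5 (0.0513) were the pathway genes that did not pass. The same 8 samples without the block gave 885 genes, St6galnac4 among them and Galnt10 not (adjusted p = 0.111). Depth limits Gcnt1, with 6 to 15 fragments per sample.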

Other observations

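St3gal2 made up 46.6 to 49.0% of the summed FPKM of the 5 sialyltransferases described in the saline samples and 49.1 to 51.2% in the StcE samples, means of 47.8 ± 0.875% and 49.8 ± 0.847% (SD, n = 5 each). The ranges did not overlap. Among all tested genes 10.7% had groups that did not overlap in FPKM, but no such background was computed for shares. St3gal2 itself was at 34.1 ± 1.32 FPKM in saline and 34.6 ± 0.753 in StcE samples (limma adjusted p = 0.688). The sum of the 5 was 71.3 ± 2.28 and 69.6 ± 1.51 FPKM. This share was chosen after its values were seen and has no test.

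St8sia6, a sialyltransferase that adds sialic acid to sialic acid on O-glycans, was under the minimum level, at 1.11 ± 0.141 FPKM in saline and 0.790 ± 0.123 in StcE samples (exact two-sided permutation p = 0.0159, not adjusted). With a minimum mean FPKM of 0.1 limma gave a log2 fold change of −0.24 (adjusted p = 0.0436), and with no minimum an adjusted p of 0.0978. Cmah, the hydroxylase that turns CMP-N-acetylneuraminic acid into its glycolyl form, was at 0.00317 ± 0.00535 FPKM in saline and 0.00356 ± 0.00287 in StcE samples, beside Cmas at 12.1 and 12.2. Both were named after their values were seen.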
